A study of Mus musculus with 6 samples.

Results

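The receptors of the IL-12 and gp130 cytokine families were followed in T cells that lack Cul5, together with 3 gp130 ligands that T cells can make. The set held 9 of the 35896 genes measured, chosen by name: the receptor genes Il12rb1, Il12rb2, Il23r, Il27ra, Il6ra and Il6st, and the ligand genes Lif, Osm and Il6. The authors' gene-level table held 7 of them by name, and 2, Il23r and Il6, were found only by summing the estimated counts of their transcripts, so all values given here come from such sums. RNA was sequenced from naive CD4+ T cells of C57BL/6 mice aged 8 to 10 weeks after 48 h of stimulation through CD3 and CD28 in Th9 conditions, which were IL-4, TGF-β and an antibody against IFN-γ in every culture. The 3 Cul5 cKO samples came from Cul5fl/fl CD4-Cre mice, in which the CD4 promoter drives Cre and deletes Cul5 in all T cells, and the 3 WT samples from littermates carrying the floxed alleles without Cre. No source used here says whether the 3 samples of a genotype came from separate animals or cultures, so p-values measure only the spread between these samples, which may be technical.

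IL-12 family cytokines signal through paired receptor chains. IL12Rβ1, encoded by Il12rb1, is shared by the receptors for IL-12, where it pairs with IL12Rβ2, and for IL-23, where it pairs with IL23R. gp130, encoded by Il6st, is the shared chain for IL-6, LIF, oncostatin M and IL-27, and pairs with IL-6Rα, with the receptors for LIF and oncostatin M, or with IL27Rα. These chains work through Jak kinases and mainly through STAT3 and STAT4, and they are known for directing helper T cells towards Th1 or Th17 fates, while the Th9 fate depends on IL-4 and TGF-β.

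Of the libraries, 5 held between 23111689 and 23454552 estimated counts and WT replicate 3 held 3944803, so 3 counts corresponded to 0.759 CPM (counts scaled to the same TMM-adjusted library size) in that library and to between 0.128 and 0.133 CPM in the others. The level of Cul5 itself was 66.2 ± 2.67 CPM in WT samples against 12.6 ± 1.82 CPM in Cul5 cKO samples (SD, n = 3 each), 19.1% of the WT level, with an edgeR adjusted p of 0.000992. Replicate 1 of both genotypes stood apart from replicates 2 and 3. Its deviations from the group means correlated at 0.370 between genotypes, and at -0.333 to -0.0946 with the other replicates of the other genotype. Replicates 2 and 3 alone gave 1153 called genes against 133 with all samples. Leaving out only WT replicate 1 gave 316, and only Cul5 cKO replicate 1 gave 123. Results whose call changes without replicate 1 are given both ways, though that fit has fewer samples and keeps the shallow WT replicate 3. All 8 CD4+ T cell markers were detected, and their sum was between 1786 and 1848 CPM in WT and between 1666 and 1707 CPM in Cul5 cKO. Of these markers 1 was called, Cd28, a costimulatory receptor, lower in Cul5 cKO by edgeR (log2 fold change -1.17, adjusted p = 0.0205). With Cd3d, Cd3e, Cd3g and Lck it made 5 of the 8 with all Cul5 cKO samples below all WT samples. None, 0 of 8, was separated the other way, beside 13.5% of the genes tested lower and 13.9% higher without overlap. Markers of other cells were low, but 4 mast cell and basophil markers summed to 32.7 CPM in Cul5 cKO replicate 2 against 0.253 to 0.389 CPM in WT, and 5 B cell markers to 48.0 CPM in Cul5 cKO replicate 3 against 15.0 to 19.2 CPM in WT and 6.49 and 9.86 CPM in Cul5 cKO replicates 1 and 2. In RNA from whole cultures, a change in the number of cells of a type and a change in RNA per cell cannot be told apart.

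The question was whether loss of Cul5 altered the level of these receptors and ligands. A ligand, Lif, and a receptor chain, Il12rb1, were higher in Cul5 cKO, by 1.85-fold and 1.52-fold, and no member was called lower. Of the 9 genes, 7 passed the filter on low counts and 2 of those were called at an adjusted p under 0.05 by edgeR's quasi-likelihood test, both higher, where 1.03% of the 12925 genes tested were called, 0.611% higher and 0.418% lower. At an unadjusted p under 0.05, 3 members were higher and 0 lower by edgeR, beside 21.3% of all genes tested (10.9% higher and 10.4% lower). The median log2 fold change of the 7 was 0.02, beside -0.01 over all genes tested. Osm also had all Cul5 cKO samples above all WT samples without being called, so 3 of the 7 tested members were separated in that direction and 0 in the other, beside 13.9% and 13.5% of the genes tested (27.5% in all). The count of members called was between 0 and 2 when any 1 library was left out. It was 0 without WT replicate 2, without WT replicate 3 and without Cul5 cKO replicate 3. In that order, those fits called only 2 of 13238, 2 of 13159 and 3 of 13376 genes tested. With replicates 2 and 3 alone the count of members called was 5, of which Lif, Osm and Il12rb1 were higher and Il6ra and Il6st lower. That fit called 8.83% of 13055 genes tested (4.38% higher and 4.45% lower).

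**Figure D1:**
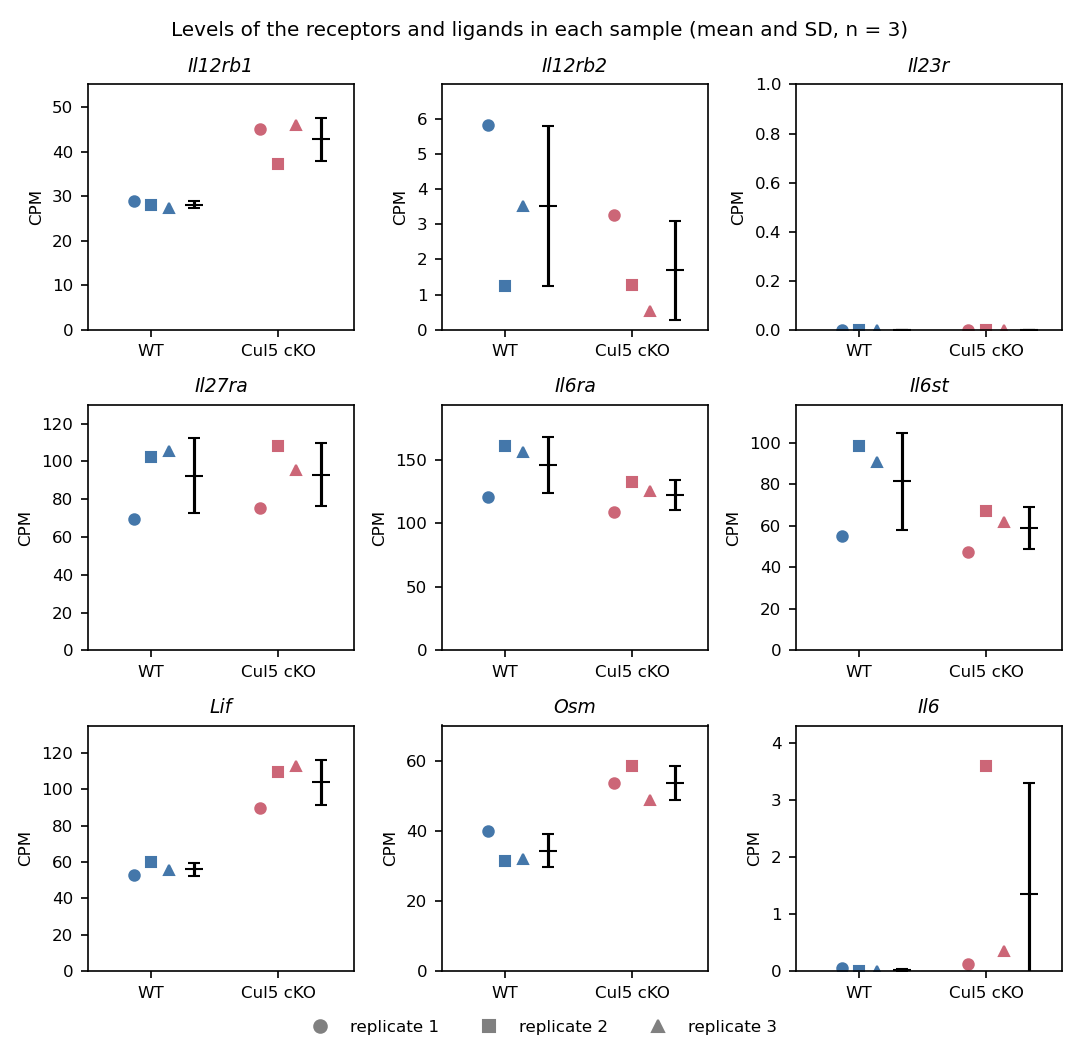
CPM of each of the 9 genes (vertical axes, linear from 0) in WT (blue) and Cul5 cKO (red), with 1 point per sample, the shape giving the replicate number and the bars the mean and SD of 3 samples. Lif, Osm, Il12rb1 and the barely detected Il6 do not overlap between genotypes, Il27ra does, Il23r is at 0 throughout, and the Il6 mean in Cul5 cKO rests on replicate 2.

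Lif encodes leukaemia inhibitory factor, which binds the LIF receptor together with gp130. It lies at chr11:4257557-4272514 on the plus strand (GRCm38, ENSMUSG00000034394). Its level was 52.5, 59.8 and 55.7 CPM in WT replicates 1, 2 and 3 and 89.4, 109 and 113 CPM in Cul5 cKO replicates 1, 2 and 3. The lowest Cul5 cKO sample was well above the highest WT sample. The means were 56.0 ± 3.63 CPM in WT against 104 ± 12.5 CPM in Cul5 cKO (SD, n = 3 each), and the log2 fold change was 0.89 (SE 0.105, 95% confidence interval 0.64 to 1.13, edgeR adjusted p = 0.0170). With replicates 2 and 3 alone the log2 fold change was 0.93 (edgeR adjusted p = 0.00682). The direction held without each library in turn, with log2 fold changes from 0.83 to 0.99, but edgeR's adjusted p passed the threshold only without WT replicate 1 or Cul5 cKO replicate 1. It was 0.0771 and 0.1001 when WT replicate 2 or 3 was left out, and 0.0678 and 0.0935 when Cul5 cKO replicate 2 or 3 was.

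The annotated coding forms of Lif differ in their first exon. Lif-202 starts at position 4257557 and has 203 codons, the full-length precursor, and Lif-201 starts 3′ of it at position 4267095 and has 158 codons. The estimate assigned 34.5, 44.2 and 33.6 CPM to Lif-202 in WT and 63.3, 88.5 and 92.5 CPM in Cul5 cKO, so the genotypes did not overlap, with means of 37.4 ± 5.88 CPM and 81.4 ± 15.8 CPM and a ratio of 2.18. Lif-201 was at 17.0, 14.9 and 21.4 CPM in WT against 23.9, 19.1 and 18.1 CPM in Cul5 cKO, where the genotypes overlapped and the ratio of means was 1.15. Reads of 50 bases are divided between the forms by the estimate, 249 sequences of 31 bases are found in Lif-202 alone and 0 in Lif-201 alone, so these values are a description without a test.

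The bases before RefSeq's Lif start are shown because the estimate, which was not tested, placed most of the difference in the longer form. That form starts at position 4257557 in GENCODE, so the last bases shown lie within it. Lif and Il6 were also the members whose window held a match to TGANTCA, the motif of AP-1 factors, read on both strands. The window is chr11:4257318-4257567 on the plus strand, from RefSeq's annotation of GRCm38.p6, 5′ to 3′, with the match in capitals, 228 bases before RefSeq's start.
Lif promoter: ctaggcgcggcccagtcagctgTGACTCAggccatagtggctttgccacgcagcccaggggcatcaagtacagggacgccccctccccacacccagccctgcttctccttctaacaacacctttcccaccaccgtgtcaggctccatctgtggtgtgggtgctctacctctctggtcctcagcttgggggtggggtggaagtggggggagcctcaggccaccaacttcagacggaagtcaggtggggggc
The promoter table matched 6 of the 9 genes (Il12rb2, Il23r, Il6ra, Il6st, Lif and Il6). Of all 32851 promoter windows of 250 bases, 6.75% held TGANTCA. The STAT motif TTCNNNGAA was in 7.02% of windows and, of the members, in that of Il12rb2 (TTCTCAGAA, 123 bases before the start), and its form with 1 more N in the middle was in 5.85% of windows and in no member's. These STAT motifs can overlap each other and were read on both strands, and a match is a description of the letters, not of binding.

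Osm encodes oncostatin M, the ligand closest to LIF in sequence and function. It lies at chr11:4236420-4241026 on the plus strand (GRCm38, ENSMUSG00000058755), with 16530 bases between its end and the start of Lif. Its level was 40.0, 31.3 and 31.9 CPM in WT against 53.6, 58.4 and 48.9 CPM in Cul5 cKO, and again no WT sample reached the lowest Cul5 cKO sample. The means were 34.4 ± 4.84 CPM and 53.6 ± 4.75 CPM (SD, n = 3 each), with a log2 fold change of 0.63 (SE 0.118, 95% confidence interval 0.36 to 0.91), and the edgeR adjusted p of 0.0630 did not pass the threshold. Osm was called with replicates 2 and 3 alone (log2 fold change 0.77, edgeR adjusted p = 0.0194) and without WT replicate 1 (0.77, edgeR adjusted p = 0.0306). It was also called by DESeq2 (adjusted p = 0.000592), which called 693 genes where edgeR called 133. Leaving out any other single library gave log2 fold changes from 0.56 to 0.70 without a call. The edgeR adjusted p in those fits was from 0.0892 (Cul5 cKO replicate 1 left out) to 0.230 (WT replicate 3 left out). Of the alternatives other than leaving out 1 library, 6 called Osm and 7 did not. Nearly all of the estimate belonged to the coding form Osm-201, with 33.8 ± 4.71 CPM in WT against 52.6 ± 4.99 CPM in Cul5 cKO.

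The neighbourhood of the Lif and Osm pair was described after their values were seen. Within 100 kb of the pair, 6 other genes were tested and 0 were called by edgeR, with log2 fold changes from -0.40 for Ccdc157 to 0.80 for Hormad2. At an unadjusted p under 0.05 they included Rnf215, lower (19.3 and 16.4 CPM in WT and Cul5 cKO, log2 fold change -0.24, edgeR adjusted p = 0.188), and Hormad2, higher (0.470 and 0.804 CPM, edgeR adjusted p = 0.226). Castor1, the tested gene next to Osm, was at 9.90 and 11.1 CPM (log2 fold change 0.18, edgeR adjusted p = 0.653).

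Il6 encodes interleukin-6, which acts through IL-6Rα and gp130. The gene lies at chr5:30013114-30019981 on the plus strand (GRCm38, ENSMUSG00000025746). It had 1, 0 and 0 counts in WT and 3, 82 and 8 counts in Cul5 cKO, or 0.0427, 0 and 0 CPM against 0.130, 3.59 and 0.356 CPM. One library, Cul5 cKO replicate 2, held nearly all of the counts, and the gene did not pass the filter. The genotypes did not overlap, but all WT samples were below 3 counts and Cul5 cKO replicate 1 was at 3. Without a filter the edgeR adjusted p was 0.122. In the same library Cpa3, a mast cell protease, was at 13.8 CPM, Mcpt8, a basophil protease, at 9.86 CPM, and Ms4a2 and Fcer1a, chains of the IgE receptor, at 8.11 and 0.964 CPM. The sum of these 4 markers was 0.521 and 1.42 CPM in the other two Cul5 cKO samples, and that of 8 myeloid markers was 21.8 CPM in replicate 2 against 6.88 and 7.03 CPM in the other two and 6.49 to 11.5 CPM in WT. Their part in the Il6 counts was not tested.

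Il12rb1 encodes the chain shared by the IL-12 and IL-23 receptors and lies at chr8:70808449-70821424 on the plus strand (GRCm38, ENSMUSG00000000791). Its level was 29.0, 28.0 and 27.5 CPM in WT against 45.1, 37.3 and 45.9 CPM in Cul5 cKO. WT samples lay within a narrow range, and all Cul5 cKO samples were above it. The means were 28.1 ± 0.782 CPM and 42.8 ± 4.77 CPM (SD, n = 3 each), and the log2 fold change was 0.60 (SE 0.0988, 95% confidence interval 0.37 to 0.83, edgeR adjusted p = 0.0435). The value barely moved with replicates 2 and 3 alone (0.59, edgeR adjusted p = 0.0397). Log2 fold changes without each library in turn were 0.55 to 0.70, and the call held only without Cul5 cKO replicate 2 (edgeR adjusted p = 0.0459), the library with the mast cell and basophil markers. It was lost without WT replicate 1 (edgeR adjusted p = 0.0518), 2 (0.176) or 3 (0.184) and without Cul5 cKO replicate 1 (0.0774) or 3 (0.186). It was lost as well with counts scaled from TPM (edgeR adjusted p = 0.107) and with limma on the authors' log2 CPM (adjusted p = 0.161).

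The transcript estimates of Il12rb1 divided mainly between a form of 738 codons, Il12rb1-201, and a form of 668 codons, Il12rb1-205, that lacks exon 14 of 16. A mouse splice form without the membrane-spanning segment is known for this receptor. Exon 14 covers chr8:70819325-70819421, 97 bases, a length that leaves a remainder of 1 when divided by 3. Both junctions are shown because they are what separates the forms, 5′ to 3′ on the plus strand of GRCm38, with exon 14 in capitals and 30 bases of each neighbouring exon in lower case.
Il12rb1-201: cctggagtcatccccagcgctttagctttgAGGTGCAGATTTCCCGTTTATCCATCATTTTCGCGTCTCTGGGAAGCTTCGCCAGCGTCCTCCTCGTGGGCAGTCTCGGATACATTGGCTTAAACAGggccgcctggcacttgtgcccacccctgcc
Il12rb1-205: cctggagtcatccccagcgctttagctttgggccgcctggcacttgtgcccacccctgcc
Il12rb1-201 was at 25.1, 24.1 and 21.7 CPM in WT against 37.8, 30.4 and 36.5 CPM in Cul5 cKO, means of 23.6 ± 1.76 and 34.9 ± 3.95 CPM. The form without exon 14 was at 2.48, 2.65 and 4.93 CPM in WT against 5.47, 5.22 and 7.59 CPM in Cul5 cKO, means of 3.35 ± 1.37 and 6.09 ± 1.30 CPM. Neither form overlapped between genotypes, and the ratios of means were 1.48 and 1.82. As a share of the gene, the form without exon 14 was 8.55%, 9.50% and 18.0% in WT and 12.1%, 14% and 16.5% in Cul5 cKO, so its share overlapped, with the highest value in the shallow WT replicate 3. Only 29 sequences of 31 bases are found in this form alone, and no test was made of it.

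**Figure D2:**
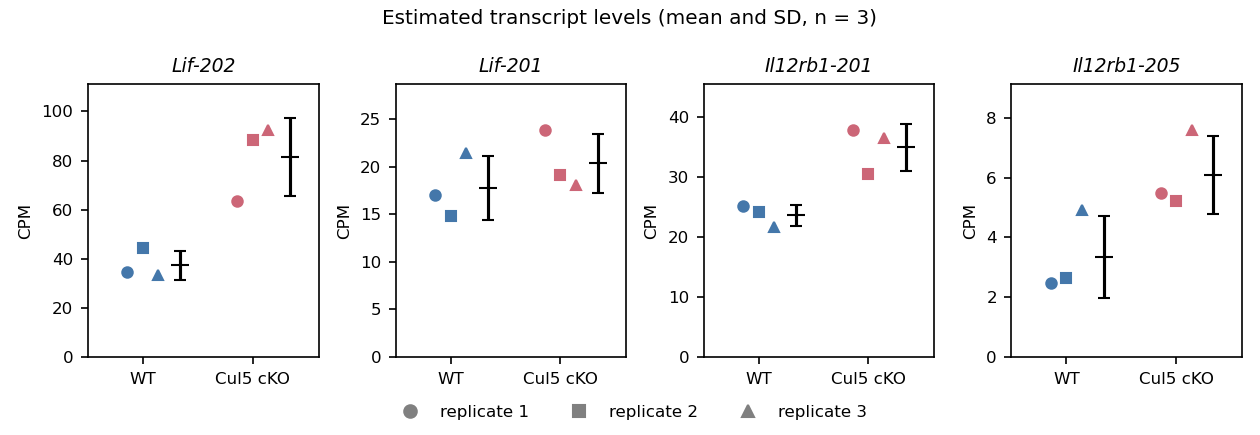
Estimated CPM (vertical axes, linear from 0) of Lif-202, Lif-201, Il12rb1-201 and Il12rb1-205 in each WT (blue) and Cul5 cKO (red) sample, with the mean and SD of 3 samples. Lif-202 and both forms of Il12rb1 are separated between genotypes, whereas Lif-201 overlaps.

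Il12rb2 encodes the second chain of the IL-12 receptor, found on Th1 cells. It lies at chr6:67291318-67376188 on the minus strand (GRCm38, ENSMUSG00000018341). Its level was 5.81, 1.24 and 3.51 CPM in WT against 3.25, 1.26 and 0.551 CPM in Cul5 cKO. The genotypes overlapped and replicate 1 was the highest sample of each. The log2 fold change was -1.06 (SE 0.738, 95% confidence interval -2.79 to 0.66, edgeR adjusted p = 0.448), an interval that holds both a large fall and a rise. Without single libraries it ranged from -1.96 to -0.33. This level is uncertain, because exons of Il12rb2 overlap those of Serbp1 on the opposite strand and 38.6% of its sequences of 31 bases (1445 of 3746) also occur in Serbp1 transcripts. The RNA-binding protein gene Serbp1 had 798 ± 50.7 CPM in WT against 913 ± 54.9 CPM in Cul5 cKO, and whether the counting used strand is not stated in the sources used here.

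Il23r, at chr6:67422932-67491855 on the minus strand (GRCm38, ENSMUSG00000049093), encodes the specific chain of the IL-23 receptor, found on Th17 cells, and ends 46743 bases before the start of Il12rb2. It had 0 counts in all 6 libraries, which allows up to 0.133 CPM in the deeper libraries and 0.759 CPM in WT replicate 3, a limit that covers counting error only. Il12b, the p40 subunit shared by IL-12 and IL-23, likewise had 0 counts in every library.

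The gp130 chain and its partners IL-6Rα and IL27Rα were all expressed. None was called in the main fit, which held all 6 samples and no replicate term. A term for replicate 1 in that fit gave 1688 called genes of 12925. Among them were Il6st (log2 fold change -0.44, edgeR adjusted p = 0.02015) and Il6ra (-0.25, edgeR adjusted p = 0.0349). With the replicate number as a block, 848 genes were called, Il6st among them (-0.43, edgeR adjusted p = 0.0325). Il6st, at chr13:112464070-112510086 on the plus strand (GRCm38, ENSMUSG00000021756), was at 54.9, 98.4 and 90.6 CPM in WT against 47.4, 67.1 and 62.0 CPM in Cul5 cKO. Replicate 1 was the lowest of each genotype, and WT replicate 1 lay within the Cul5 cKO range. The means were 81.3 ± 23.2 and 58.8 ± 10.2 CPM (SD, n = 3 each), with a log2 fold change of -0.46 (SE 0.227, 95% confidence interval -0.99 to 0.07, edgeR adjusted p = 0.298). With replicates 2 and 3 alone the log2 fold change was -0.56 and Il6st was called (edgeR adjusted p = 0.0182), each of those Cul5 cKO samples being below each of those WT samples. Leaving out 1 library gave log2 fold changes from -0.69 (WT replicate 1 left out, edgeR adjusted p = 0.0693) to -0.27 (WT replicate 2 left out, edgeR adjusted p = 0.593), and none of these fits called Il6st.

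Il6ra, the IL-6-binding chain, lies at chr3:89864059-89913196 on the minus strand (GRCm38, ENSMUSG00000027947). Its level was 121, 161 and 156 CPM in WT against 109, 133 and 126 CPM in Cul5 cKO. Here too replicate 1 was the lowest of each genotype, and the ranges overlapped through it. The means were 146 ± 21.8 and 122 ± 12.05 CPM (SD, n = 3 each), with a log2 fold change of -0.25 (SE 0.126, 95% confidence interval -0.54 to 0.04, edgeR adjusted p = 0.301). With replicates 2 and 3 alone it was called at -0.30 (edgeR adjusted p = 0.0393). Leaving out 1 library gave -0.37 (WT replicate 1, edgeR adjusted p = 0.0878) to -0.16 (WT replicate 2, edgeR adjusted p = 0.572), and none of these fits called it. Of its sequences of 31 bases, 3.17% also occur in other genes, mostly in the antisense gene Gm42809.

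Il27ra, the specific chain of the IL-27 receptor, lies at chr8:84030294-84042589 on the minus strand (GRCm38, ENSMUSG00000005465). Its level was 69.6, 102 and 106 CPM in WT against 75.1, 108 and 95.7 CPM in Cul5 cKO. The genotypes overlapped almost entirely, and replicate 1 was again the lowest of each. The means were 92.5 ± 20.0 and 93.0 ± 16.7 CPM (SD, n = 3 each), and the log2 fold change of 0.02 (SE 0.188, 95% confidence interval -0.42 to 0.46, edgeR adjusted p = 0.971) turned in sign under several alternatives.

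**Figure D3:**
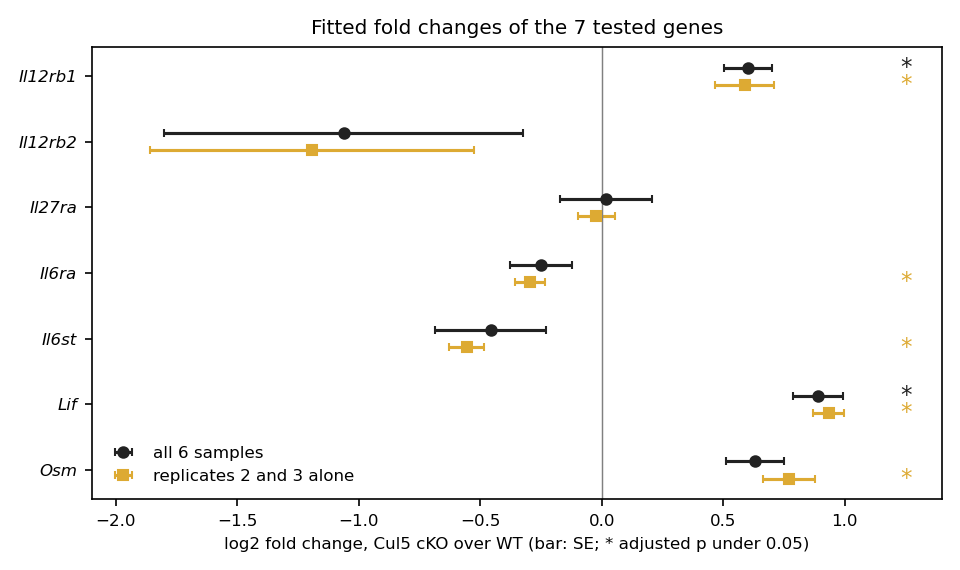
Log2 fold change of Cul5 cKO over WT (horizontal axis) for the 7 tested genes, fitted with all 6 samples (black circles) and with replicates 2 and 3 alone (yellow squares). Bars are SE and stars mark an adjusted p under 0.05: Il12rb1 and Lif carry a star in both fits, and Osm, Il6ra and Il6st only with replicates 2 and 3.

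To compare levels between genes, TPM, a level per length, was summed for each gene. In WT the highest were the receptor chains Il27ra (56.5 ± 13.95 TPM) and Il6ra (41.5 ± 7.08 TPM), whose ranges overlapped. Lif (25.8 ± 2.59 TPM), Osm (23.7 ± 3.78 TPM), Il6st (19.9 ± 5.15 TPM) and Il12rb1 (16.4 ± 2.02 TPM) followed, each overlapping the next. Il12rb2 was far lower at 1.69 ± 1.10 TPM, and Il6 and Il23r were at or near 0. In Cul5 cKO, Il27ra (53.1 ± 9.63 TPM) and Lif (50.7 ± 2.40 TPM) overlapped at the top. Osm (36.9 ± 3.06 TPM) and Il6ra (33.8 ± 3.40 TPM) came next and overlapped, Il12rb1 (25.0 ± 2.33 TPM) was above Il6st (13.5 ± 1.64 TPM) without overlap, and Il6 (1.65 ± 2.32 TPM) and Il12rb2 (0.825 ± 0.693 TPM) overlapped. Il6st thus stood above Il12rb1 in WT and below it in Cul5 cKO, although the WT ranges of that pair overlapped.

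Other genes of the same pathways were read from fixed lists. Over all genes tested, 0.611% were called higher and 0.418% lower. At an unadjusted p under 0.05 by edgeR, 10.9% were higher and 10.4% lower. Of 7 other receptor chains, 1 was tested and 0 were called by edgeR (0 at an unadjusted p under 0.05): Il11ra1, the IL-11 receptor chain, had 3.27 ± 0.765 CPM in WT against 3.13 ± 0.945 CPM in Cul5 cKO. Lifr and Osmr, which encode the receptors for LIF and oncostatin M, did not pass the filter on low counts. Lifr had 9.65, 2 and 0 estimated counts in WT replicates 1, 2 and 3 and 6.07, 9.09 and 10.17 in Cul5 cKO. Osmr had 3, 4 and 0 estimated counts in WT and 1, 0 and 0 in Cul5 cKO. Of 12 other ligand genes 4 were tested and 0 were called (1 lower at an unadjusted p under 0.05), the median being -0.21 on the log2 scale. Clcf1, a ligand of the CNTF receptor, was at 18.0 ± 5.35 and 10.2 ± 1.92 CPM (log2 fold change -0.78, edgeR adjusted p = 0.141). Il12a, the p35 subunit of IL-12, had a log2 fold change of -0.38 (edgeR adjusted p = 0.779), Cntf of -0.03 (0.971) and Ebi3, a subunit of IL-27, of 0.02 (0.977).

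All 9 genes of the list of kinases, STATs and feedback inhibitors were tested and 0 were called by edgeR. At an unadjusted p under 0.05 there were 2 higher and 3 lower, beside 10.9% and 10.4% of all genes tested. The median log2 fold change of the 9 was 0.00. Of the 9, 3 had all Cul5 cKO samples above all WT samples and 3 all below, beside 13.9% and 13.5% of the genes tested. Stat4, the main STAT of the IL-12 receptor, had 55.1 ± 12.7 CPM in WT against 30.3 ± 5.21 CPM in Cul5 cKO, without overlap (log2 fold change -0.86, SE 0.191, edgeR adjusted p = 0.0862). Socs3, a feedback inhibitor that binds gp130, was at 44.0 ± 2.46 and 58.8 ± 12.3 CPM (0.43, edgeR adjusted p = 0.162). Jak1, the kinase of gp130 receptors, was at 420 ± 17.7 and 354 ± 25.5 CPM (-0.25, edgeR adjusted p = 0.124) and Socs1 at 209 ± 9.68 and 246 ± 12.4 CPM (0.23, 0.123).

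Of 14 genes known to respond to STAT3, 12 were tested and 1 was called higher, beside 0.611% of all genes tested. At an unadjusted p under 0.05, 5 were higher and 0 lower, beside 10.9% and 10.4% of all genes tested. The median of the 12 was 0.33 on the log2 scale. Of the 12, 6 had all Cul5 cKO samples above all WT samples and 0 all below, beside 13.9% and 13.5% of the genes tested. The called gene was Maf, a transcription factor of IL-4- and IL-10-producing T cells, with 31.7 ± 5.58 CPM in WT against 66.0 ± 3.82 CPM in Cul5 cKO (1.07, SE 0.131, edgeR adjusted p = 0.0185). It was not called with limma on log2(TPM + 1), or without WT replicate 2 or 3 or Cul5 cKO replicate 2 or 3. Il10, an anti-inflammatory cytokine, was at 4.46 ± 2.70 and 17.1 ± 6.92 CPM (1.91, edgeR adjusted p = 0.110), and Fosl2, an AP-1 factor, at 19.4 ± 5.61 and 39.7 ± 12.5 CPM (1.05, 0.123). The AP-1 genes Fos and Junb had log2 fold changes of 0.54 and 0.51 (edgeR adjusted p = 0.399 and 0.325).

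Of 9 genes known to respond to IL-12 and STAT4, 8 were tested and 0 were called. At an unadjusted p under 0.05, 2 were higher and 1 lower, beside 10.9% and 10.4% of all genes tested. The median of the 8 was 0.21 on the log2 scale. Of the 8, 2 had all Cul5 cKO samples above all WT samples and 1 all below, beside 13.9% and 13.5% of the genes tested. Ifng, the Th1 cytokine, was at 0.401 ± 0.370 and 1.99 ± 2.23 CPM (2.15, edgeR adjusted p = 0.347). It had 3, 19 and 1 counts in WT and 2, 33 and 100 in Cul5 cKO replicates 1, 2 and 3, so most came from Cul5 cKO replicate 3. Tbx21, the Th1 regulator, was at 1.09 ± 0.698 and 2.97 ± 2.06 CPM (1.43, edgeR adjusted p = 0.317). Gadd45g was at 5.15 ± 2.06 and 12.3 ± 3.27 CPM (1.23, edgeR adjusted p = 0.112), Hopx at 4.26 ± 0.224 and 2.73 ± 0.469 CPM (-0.64, 0.161) and Furin, a protease, at 235 ± 57.7 and 322 ± 20.2 CPM (0.46, 0.189). With replicates 2 and 3 alone, 9 of the 36 tested genes of the 5 lists were called by edgeR, in the fit that called 8.83% of all genes, namely Batf, Fosl2, Gadd45g, Il10, Junb and Maf, higher, and Clcf1, Jak1 and Stat4, lower.

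**Figure D4:**
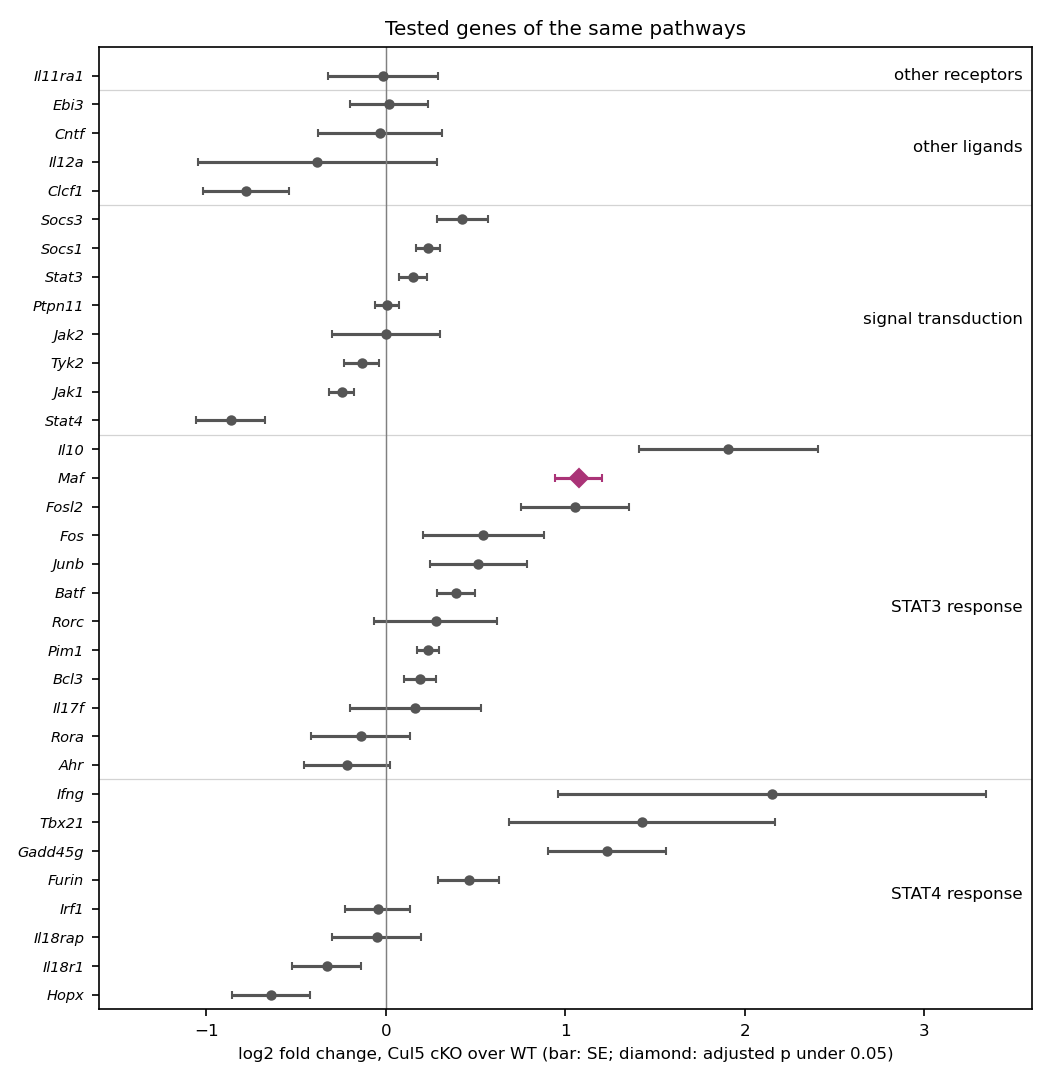
Log2 fold change of Cul5 cKO over WT (horizontal axis) with SE for tested genes of 5 lists, other receptors, other ligands, signal transduction, STAT3 response and STAT4 response. The diamond marks Maf, the single gene drawn with an adjusted p under 0.05, and circles the genes that were not called.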

How the data were processed

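Poly-A RNA of 3 WT and 3 Cul5 cKO samples was sequenced in single-end reads of 50 bases. The authors assigned reads to GRCm38 transcripts with kallisto 0.46.2 and deposited, per transcript, estimated counts, which are not normalized, and TPM. The authors also deposited a gene-level table of log2 CPM, TMM-normalized with edgeR 3.34.0 as the submitters' processing notes name it. That table's own fold-change and p-value columns, one of each per gene, are the authors' comparison and were not used.

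Transcripts were matched to genes with GENCODE vM21 (116640 of 119414, 97.7%). The unmatched held 0.958% to 1.04% of a sample's counts. Gene sums were rounded and tested in R 4.3.3 with edgeR 4.0.16 (default expression filter, TMM, quasi-likelihood test, Benjamini-Hochberg adjustment over 12925 genes), which was tested on simulated data. A gene was called at an adjusted p under 0.05. The exact permutation test was not used, since for 3 samples against 3 it cannot go below 0.1. CPM uses TMM-scaled library sizes. limma 3.58.1, DESeq2 1.42.0, Python 3.11.15, numpy 2.4.6 and pandas 2.3.3 were used too. Alternatives changed the tool, filter, normalization, counts, depth, covariate and samples.

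Members and lists were chosen with earlier results of these data known, so no p over a list is given. The genes named are all members, and from each pathway list the called genes and up to 5 tested genes of largest absolute log2 fold change, with exceptions stated. Lifr, Osmr and Il12b are named although they were not tested. In the list of kinases, STATs and feedback inhibitors, 1 gene is counted but not reported here. Sequences are from the GRCm38 reference with GENCODE exons and from RefSeq's promoter windows.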

Additional observations from a re-analysis of the deposited data

How the results depend on the processing

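Cul5, Lif, Osm and Il12rb1 kept their direction in all 19 alternatives, and Cul5 its call, with log2 fold changes from -2.48 to -1.95. Genes called numbered 133 as reported, 693 with DESeq2, 228 with no filter beyond 1 count, 60 with counts scaled from TPM, 42 with limma on the authors' table, 27 with limma on log2(TPM + 1), 30 with a pseudocount of 0.1 in its place, 1259 with voom and sample quality weights, 1688 with replicate 1 as a term and 1153 with replicates 2 and 3 alone. Leaving out 1 library gave 2 to 316 (316 without WT replicate 1, 2 without WT replicate 2 or 3, 123, 45 and 3 without Cul5 cKO replicates 1, 2 and 3). The split was 79 higher and 54 lower as reported, 72 and 77 with library size alone and 73 and 72 with at least 10 counts in every sample. Members called numbered 1, Lif, with counts scaled from TPM, limma on the authors' table and limma on either log2 TPM, 3 with DESeq2, no filter or voom (Osm added), 5 with replicate 1 as a term or replicates 2 and 3 alone, and 0 to 2 without 1 library. Pathway genes called numbered 1 as reported, 6 with DESeq2, 2 with no filter, 2 with depths thinned to WT replicate 3, 0 with limma on either log2 TPM, 9 with voom, 13 with replicate 1 as a term, 9 with replicates 2 and 3 alone and 0 to 3 without 1 library. The log2 fold change of Il27ra turned from 0.02 to -0.0256 with library size alone, -0.0231 with counts scaled from TPM, -0.0696 and -0.0704 with limma on log2 TPM (pseudocounts of 1 and 0.1), -0.0213 with voom, -0.0224 with replicates 2 and 3 alone and -0.0398 with thinned depths, and lay between -0.16 and 0.16 without 1 library. The cause of these changes was not tested.

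Replicate numbers paired the samples only in part. Deviations from the group means of samples with the same number correlated at 0.370, 0.206 and 0.0245. The values 0.370 and 0.206 were the highest for the samples concerned. WT replicate 3 was closest to Cul5 cKO replicate 2 (0.0914), and Cul5 cKO replicate 3 to WT replicate 2 (0.201, little below 0.206). With the replicate block 848 genes, 4 members (Il12rb1, Il6st, Lif and Osm) and 8 pathway genes were called. The depth of WT replicate 3 limits what can be seen of Il6, Il23r and Il12rb2.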

Other observations

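The genes most like Lif over the 6 samples, by Pearson's r of log2 CPM among 8695 tested genes with a mean of at least 10 CPM, were Sh3bp2 (r = 0.999, log2 fold change 0.39), Timm17a (r = 0.997, 0.46) and Pgam5 (r = 0.995, 0.25). Those most like Il12rb1 were Tsr3 (r = 0.998, 0.42), Rrm2 (r = 0.997, 0.43) and Aprt (r = 0.997, 0.36). These correlations rest on 6 samples that fall into 2 genotypes and are given as a description.

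Sums of other cell type markers not given above were 5.75 to 6.54 CPM in WT against 4.30, 6.37 and 11.7 CPM in Cul5 cKO for 2 CD8 genes, and 4.45 to 9.91 CPM in WT against 6.15, 13.2 and 10.4 CPM in Cul5 cKO for 4 NK cell genes, of which Ncr1 had 0 counts in every library. The 4 stromal genes summed to 0.759 to 1.11 CPM in WT against 0.489 to 0.869 CPM in Cul5 cKO.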
